A study of Mus musculus with 8 samples.

Results

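Lhx1, Isl2, Pax6, Pax8, Mkx, Zfp521 and Runx1t1 are 7 genes of developmental transcription regulators, chosen by symbol because earlier results of these arrays showed them high in freshly isolated mouse germ cells and low after culture. They are 7 of the 16390 genes that the probe annotation names, and each has 1 probe. All contrasts among the groups served in that choice, so the levels and changes of the 7 genes are given as a description with no test. Expression was measured on 8 one-colour oligonucleotide arrays, 2 per group, of cells that all carry a Nanog-GFP reporter, in which the fluorescent protein marks activity of the pluripotency gene Nanog. The groups are primordial germ cells of stage E11.5, named E11.5 PGC, their cultures on days 3 and 6, named Day3 and Day6, and embryonic germ cells (EG), which are pluripotent cells derived from germ cells. Sample names other than those of E11.5 PGC carry the inhibitor mix 2i+A83, listed as 1 µM of the MEK inhibitor PD325901, 3 µM of the GSK3 inhibitor CHIR99021 and 250 nM of A83-01, which blocks Activin and Nodal receptors. The medium held LIF, bFGF and 15% serum replacement in Knockout DMEM. These protocol entries stand on the E11.5 PGC samples too, so the labels do not say which cells met the inhibitors. Cell sorting by fluorescence was part of the design, but the labels do not say which samples were sorted, nor whether arrays of a group came from separate embryos, cultures or lines. The p-values given for other genes therefore measure only the spread between these arrays.

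Transcription factors of this kind set the identity of tissues in the embryo, and most of them are silent outside the lineages they specify. Lhx1 (Lim1) and Isl2 are LIM-homeodomain proteins, which bind DNA through a homeodomain and partner proteins such as Ldb1 through LIM domains. Lhx1 acts in the head organizer and in the kidney anlage, and Isl2 in motor neurons. Pax6 and Pax8 carry a paired domain: Pax6 is required for the eye and parts of the brain, and Pax8 for the thyroid and, with Pax2, for the kidney. Mkx (Mohawk) is a homeodomain protein of the TALE class known for tendon. Zfp521 is a zinc finger cofactor that binds Ebf factors and acts in neural, blood and bone precursors. Runx1t1 (ETO) is a corepressor without a DNA-binding specificity of its own, known from its fusion with RUNX1 in human leukaemia. None of the 7 is among the usual germ cell markers.

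The start regions of 4 of the 7 genes are printed from the RefSeq promoter table. They allow these genes to be compared in the sequence next to their start sites. Each window spans 250 bases before to 50 after the annotated start in GRCm38.p6, read 5′ to 3′ on the gene's strand. The windows are chr11:84525485-84525784 (minus strand) for Lhx1, chr9:55540899-55541198 (plus strand) for Isl2, chr2:105668646-105668945 (plus strand) for the upstream start of Pax6, and chr2:24475550-24475849 (minus strand) for Pax8. Capitals mark TGACGTC, the core of the cAMP response element, and CCAAT, each on either strand.
Lhx1: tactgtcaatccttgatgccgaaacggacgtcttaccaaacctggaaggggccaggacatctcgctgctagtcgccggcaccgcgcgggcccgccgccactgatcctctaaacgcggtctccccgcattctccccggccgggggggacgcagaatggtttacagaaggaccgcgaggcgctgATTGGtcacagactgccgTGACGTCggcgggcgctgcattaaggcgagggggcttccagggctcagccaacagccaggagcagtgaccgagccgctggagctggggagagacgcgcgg
Isl2: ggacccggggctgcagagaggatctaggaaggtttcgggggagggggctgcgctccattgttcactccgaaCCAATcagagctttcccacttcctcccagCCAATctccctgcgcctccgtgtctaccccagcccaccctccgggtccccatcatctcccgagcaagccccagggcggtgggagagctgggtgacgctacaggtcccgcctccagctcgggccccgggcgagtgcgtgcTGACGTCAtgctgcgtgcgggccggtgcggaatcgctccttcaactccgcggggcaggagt
Pax6: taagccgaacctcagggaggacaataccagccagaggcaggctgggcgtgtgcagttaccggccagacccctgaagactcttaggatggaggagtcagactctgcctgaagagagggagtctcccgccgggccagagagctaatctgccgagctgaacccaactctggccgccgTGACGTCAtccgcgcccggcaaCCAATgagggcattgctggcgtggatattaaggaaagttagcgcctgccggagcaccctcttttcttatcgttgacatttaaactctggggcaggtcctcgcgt
Pax8: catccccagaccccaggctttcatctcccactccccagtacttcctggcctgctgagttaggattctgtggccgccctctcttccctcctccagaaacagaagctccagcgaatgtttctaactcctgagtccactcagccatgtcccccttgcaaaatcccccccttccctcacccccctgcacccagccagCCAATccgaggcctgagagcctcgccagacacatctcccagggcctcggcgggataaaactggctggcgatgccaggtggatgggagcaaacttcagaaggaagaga
TGACGTC was present in the Lhx1, Isl2 and Pax6 windows, beginning 50, 11 and 76 bases before the start. In Isl2 and Pax6 it was part of the full palindrome TGACGTCA, which overlaps it and reads the same on both strands. Of all 32851 windows in the table, 3.21% held TGACGTC and 1.79% TGACGTCA. CCAAT stood in all of the printed windows and in 37.41% of all windows, and none of the printed ones held TATAAA, which 13.62% of all windows held. The window of Pax6's downstream start, chr2:105682213-105682512, held none of these motifs. The letters searched were chosen after the windows had been read, and a match describes the sequence only. The windows of Lhx1, Isl2 and Pax6 held 31, 23 and 18 CpG dinucleotides and that of Pax8 held 7, beside a median of 7 over all windows.

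Values are spot intensities, scaled by the authors so that each array's median lies near 20, and changes are differences of mean log2 intensity with the standard error of a limma fit to all 8 arrays (n = 2 arrays per group). Since probes differ in how they bind, levels are compared between arrays and not between genes. No detection call was used, and a level is called near the floor where both arrays of a group lie under 4.24, the limit below which the dimmest 25% of probes lie. A change that ends near the floor has no exact size, and its value with a pseudocount of 2.275 added to every intensity is then given too. Array names fall into 2 series. Both EG arrays and replicate 1 of each other group belong to series A, and replicate 2 of the other groups to series B.

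**Figure D1:**
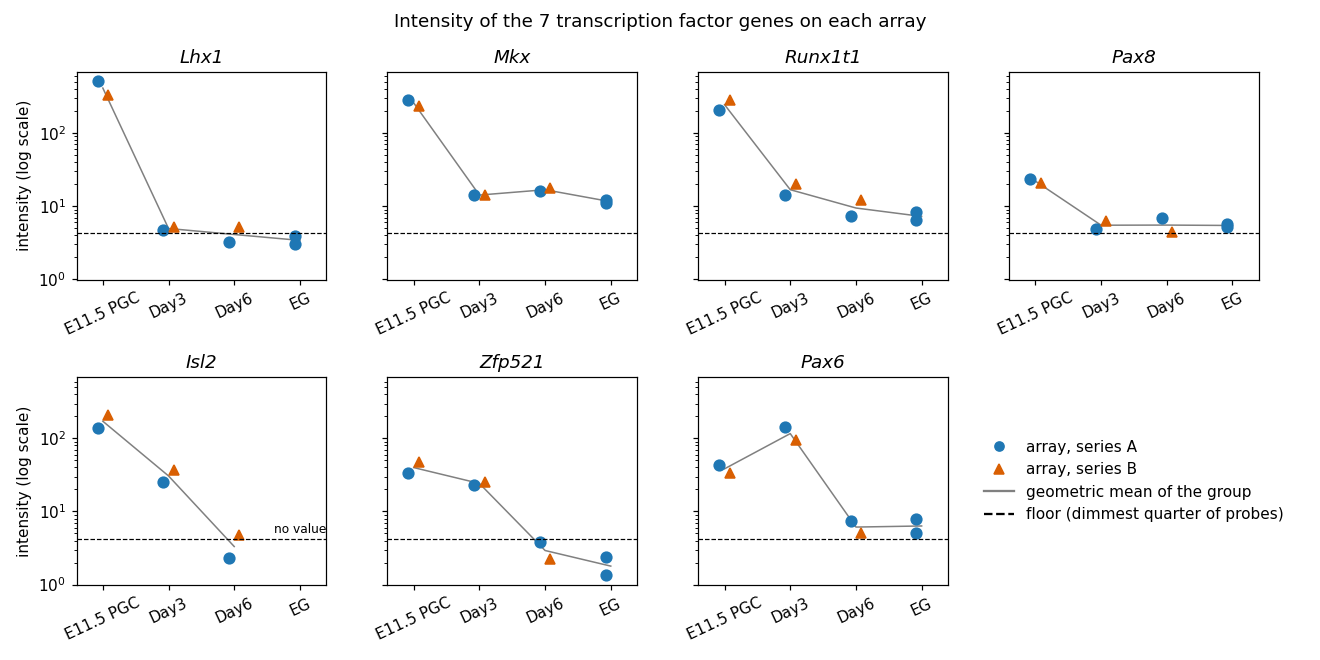
Intensity (log axis) of the 7 genes on each array, with circles for array series A, triangles for series B, a line through the geometric means of the groups, and a dashed line at 4.24. Lhx1, Mkx, Runx1t1 and Pax8 were low by Day3, Isl2 and Zfp521 by Day6, and Pax6 peaked at Day3.

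The genes differed in when they became low. Lhx1, Mkx, Runx1t1 and Pax8 were already low on culture day 3. Zfp521 had most of its decline between days 3 and 6, and Isl2 declined in both intervals. Pax6 was higher at Day3 than in E11.5 PGC and low at Day6. At Day6 all 7 were lower than in E11.5 PGC, with no overlap between the arrays. That pattern was part of what chose the genes. These are bulk samples, in which fewer cells of a type and less RNA per cell cannot be told apart.

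Lhx1 showed the widest range of the 7. Intensities were 513 and 335 in E11.5 PGC, 4.68 and 5.25 on the Day3 arrays, 3.23 and 5.20 on the Day6 arrays, and 3.87 and 3.00 in EG. Both E11.5 PGC arrays stood far above the others, 1 of the 2 Day6 arrays and both EG arrays were under the floor limit, and the Day6 arrays overlapped those of Day3 and EG. At Day3 the mean was lower than in E11.5 PGC by 83.7-fold, a log2 change of -6.39 ± 0.36 (series A -6.78, series B -6.00, -5.85 with the pseudocount). Only 2 of the 20678 probes compared had a lower change at this step, a rank that follows in part from how the genes were chosen. In EG the log2 change from E11.5 PGC was -6.93 ± 0.36, or -6.19 with the pseudocount. The floor leaves its size inexact: the E11.5 PGC mean stood 97.7-fold above the floor limit. The steps after Day3 were within their errors, at -0.27 ± 0.36 for Day6 minus Day3 and also for EG minus Day6.

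Mkx belonged to the same early class but levelled off above the floor. Intensities were 288 and 234 in E11.5 PGC, 14.3 and 14.1 on the Day3 arrays, 16.1 and 17.5 on the Day6 arrays, and 10.995 and 12.1 in EG. All 6 later arrays were far below the E11.5 PGC arrays, and every one of them was well above the floor limit. The log2 change at Day3 was -4.19 ± 0.26, an 18.3-fold lower mean, with -4.33 within series A and -4.05 within series B. Among the later groups the arrays did not overlap, with Day6 highest and EG lowest, but the differences were small: 0.24 ± 0.26 for Day6 minus Day3, and -0.54 ± 0.26 for EG minus Day6.

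Runx1t1 had most of its decline by Day3 and a smaller further step. Intensities were 209 and 288 in E11.5 PGC, 14.1 and 20.1 on the Day3 arrays, 7.30 and 12.2 on the Day6 arrays, and 8.21 and 6.40 in EG. The groups were ordered E11.5 PGC, Day3, Day6 and EG by mean, with arrays that overlapped only between Day6 and EG. The log2 change was -3.87 ± 0.37 at Day3 (14.6-fold lower than E11.5 PGC; series A -3.89, series B -3.84). Day6 minus Day3 was -0.83 ± 0.37, and EG minus E11.5 PGC was -5.08 ± 0.37. EG minus Day6 was -0.38 ± 0.37, and within series A it was -0.01.

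Pax8 had the smallest change from E11.5 PGC to Day6 of the 7. It had 23.5 and 20.7 in E11.5 PGC, 4.87 and 6.20 on the Day3 arrays, 6.80 and 4.48 on the Day6 arrays, and 5.77 and 5.14 in EG. The 6 later arrays overlapped among themselves just above the floor limit and lay below both E11.5 PGC arrays. The log2 change at Day3 was -2.004 ± 0.31, a 4.01-fold lower mean, and it was -1.64 with the pseudocount. No order can be read among the 3 later groups, since Day6 minus Day3 was 0.48 within series A and -0.47 within series B.

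Isl2, the second LIM-homeodomain gene, declined in both intervals. Its intensities were 140.4 and 210.4 in E11.5 PGC, 25.2 and 37.2 on the Day3 arrays, and 2.31 and 4.74 on the Day6 arrays, and neither EG array has a value. Each group lay below the one before it with no overlap. The log2 change was -2.49 ± 0.46 for Day3 minus E11.5 PGC and -3.21 ± 0.46 for Day6 minus Day3 (-2.54 with the pseudocount, since 1 Day6 array was under the floor limit). Why the EG values are missing is not given in the sources used here, so no level is stated for Isl2 in EG. With the pseudocount the 2 steps were -2.40 and -2.54, so which of them was larger depends on how the dim Day6 arrays are treated.

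Zfp521, like Pax6, became low only between Day3 and Day6. It had 33.6 and 47.4 in E11.5 PGC, 23.1 and 25.3 on the Day3 arrays, 3.87 and 2.21 on the Day6 arrays, and 2.40 and 1.33 in EG. The Day3 arrays were only a little below the E11.5 PGC arrays, while all Day6 and EG arrays were near the floor. Day3 minus E11.5 PGC was -0.72 ± 0.41. Day6 minus Day3 was -3.05 ± 0.41 (series A -2.58, series B -3.52, and -2.33 with the pseudocount). EG overlapped Day6, with a difference of -0.71 ± 0.41 (-0.35 with the pseudocount), and because both are near the floor this has no exact size.

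Pax6 followed a course of its own. Its intensities were 43.8 and 33.6 in E11.5 PGC, 143 and 94.7 on the Day3 arrays, 7.42 and 5.04 on the Day6 arrays, and 7.90 and 5.07 in EG. Day3 was the highest group and E11.5 PGC the next, and the Day6 and EG arrays overlapped just above the floor limit. Day3 minus E11.5 PGC was 1.60 ± 0.38, a 3.03-fold higher mean, with 1.71 within series A and 1.496 within series B. Day6 minus Day3 was -4.25 ± 0.38, a 19.0-fold lower mean (series A -4.27, series B -4.23, -3.82 with the pseudocount). Only 3 of the 20015 probes compared at that step had a lower change, a rank that follows in part from how the genes were chosen. Relative to E11.5 PGC, the mean was lower by 2.65 ± 0.38 on the log2 scale at Day6 and by 2.60 ± 0.38 in EG.

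**Figure D2:**
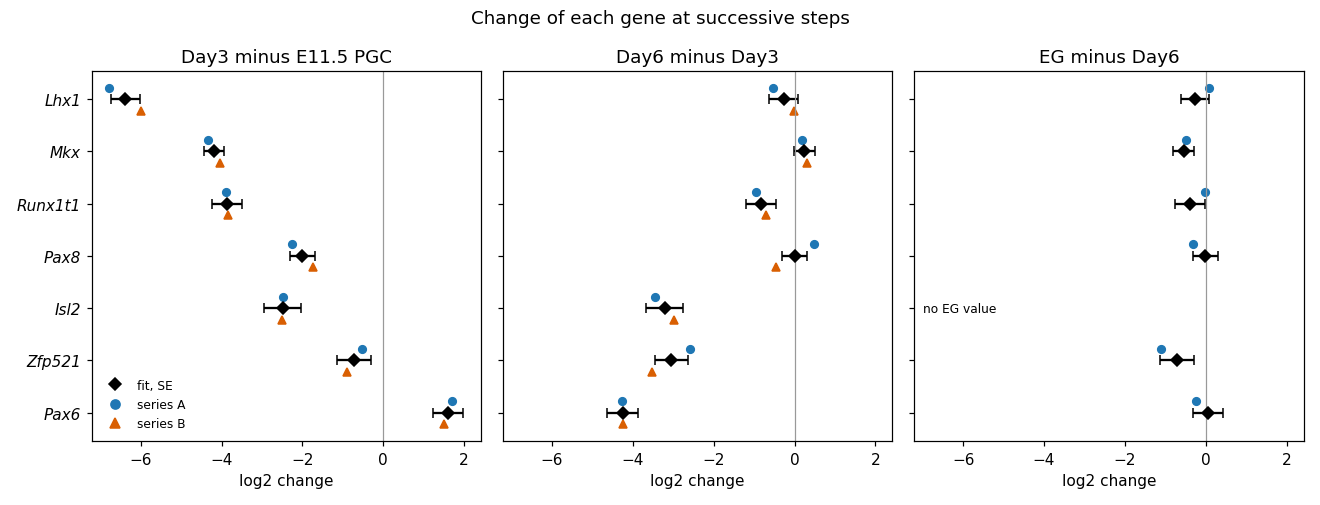
Log2 change of each gene at the 3 successive steps, with diamonds and bars for the fitted change and its standard error, circles for series A and triangles for series B. Lhx1, Mkx, Runx1t1 and Pax8 have their large change in the left panel, Zfp521 and Pax6 in the middle panel, Isl2 in both, and no fitted change in the right panel is below -0.71.

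The share of the Day6 decline that was present at Day3 orders the genes by timing. It was 95.9% for Lhx1 (92.7% in series A and 99.8% in series B), 82.3% for Runx1t1 (80.4% and 84.3%), 43.7% for Isl2 (41.8% and 45.7%) and 19.1% for Zfp521 (17.3% and 20.4%), all on the log2 scale. Among these 4 the order was the same in both array series. For Mkx and Pax8 the share was 106% and 100.3%, and for Pax8 it was less certain, at 127% in series A and 78.8% in series B, so its place relative to Lhx1 and Runx1t1 differed between the series. For Pax6, which was higher at Day3, it was -60.4%. The shares of Lhx1, Isl2 and Zfp521 rest on Day6 levels at or near the floor, so the full decline of these genes has no exact size.

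At Day3, 6 of the 7 genes were lower than in E11.5 PGC with no overlap, and the median log2 change of all 7 was -2.49, beside -0.13 over all probes, of which 25.3% were lower with no overlap. At Day6 the median against Day3 was -0.83, with 4 of 7 lower without overlap, beside -0.05 and 16.9% over all probes. Against E11.5 PGC it was -3.95 at Day6 with 7 of 7, beside -0.16 and 31%. In EG it was -4.49 against E11.5 PGC with 6 of the 6 that have a value, beside -0.16 and 39.9%. These comparisons share arrays and gave the genes their place here, so nothing is read from the counts. From Day6 to EG the median was -0.33, beside -0.01, and Mkx was the only one of 6 that was lower with no overlap, beside 22.8% of all probes. The levels thus cover different end points: Zfp521 and, in EG, Lhx1 ended near the floor, Pax8, Pax6 and Runx1t1 ended a little above it, and Mkx kept an intensity of at least 10.995 on every array.

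Relatives and partners of the 7 genes were read from the same fit, with adjusted p-values over all probes tested (limma, Benjamini-Hochberg, threshold 0.05). At that threshold 0.754% of 20678 probes were lower and 1.33% higher at Day3 than in E11.5 PGC. No probe of 20015 passed for Day6 minus Day3 (limma; 1783 had an unadjusted p under 0.05, and 361 passed under a model with array series as a block). For Day6 minus E11.5 PGC, 4.28% of 20136 probes were lower and 4.34% higher, and for EG minus E11.5 PGC, 5.61% of 20761 were lower and 5.57% higher. For EG minus Day6, 0.0298% of 20103 probes were lower and 0.139% higher. Under the blocked model, each time against E11.5 PGC, 4% of probes were lower and 4.34% higher at Day3, 14.3% lower and 9.5% higher at Day6, and 14.4% lower and 9.24% higher in EG. It called 0.829% lower and 0.974% higher for Day6 minus Day3, and 0.716% lower and 1.25% higher for EG minus Day6.

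Calls among relatives and partners of the 7 genes differed between the lists, of which each had 5 to 14 tested genes at Day6. The share called lower at Day6 than in E11.5 PGC ran from 0 to 37.5% by list, beside 4.28% over all probes. At Day3, among all lists of relatives and partners, only Ldb2 was called lower than in E11.5 PGC (-1.53 ± 0.27, adjusted p = 0.0424, and 0.109 to 0.239 with 1 array left out), and it was near the floor in both groups. The blocked model called 5 of them lower, namely Lhx9, Ldb2, Lmo2, Pbx2 and Sin3a. Of 10 other LIM-homeodomain genes, 8 could be tested at Day6 and 1 was lower than in E11.5 PGC. That gene was Lhx9, which acts in the early gonad. Lhx9 had 1.68 and 1.74 at Day6 and 10.5 and 8.47 in E11.5 PGC, and its log2 change was -2.47 ± 0.45 (adjusted p = 0.0262, and 0.0632 to 0.142 with any 1 array left out). Both Day6 arrays of Lhx9 were near the floor. Isl1, the closest relative of Isl2, lay between 3.69 and 9.12 on all 8 arrays. The median change of the 8 was -0.31, beside -0.16 over all probes.

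The cofactors that LIM-homeodomain proteins bind, or compete with, had more calls. Of 8 tested, 3 were lower at Day6 than in E11.5 PGC and none was higher, with a median of -1.21 (under the blocked model, 5 were lower and 1 higher). Lmo2, a LIM-only protein of blood and vessel formation, had 4.73 and 2.98 at Day6 and 27.9 and 24.01 in E11.5 PGC, a change of -2.79 ± 0.45 (adjusted p = 0.0122, and 0.0288 to 0.0821 with 1 array left out, lost without either E11.5 PGC array). Ssbp3, which stabilizes Ldb proteins, had 26.6 and 22.2 at Day6 and 58.0 and 60.6 in E11.5 PGC, a change of -1.28 ± 0.27 (adjusted p = 0.031, and 0.0719 to 0.144 with 1 array left out). Ldb2 was also called lower (adjusted p = 0.0349, and 0.0647 to 0.16 with 1 array left out), but it was near the floor in every group, and the call was lost in some other settings (adjusted p up to 0.0849). Ldb1, the main partner, had 207 and 188 at Day6 and 307 and 265 in E11.5 PGC and was not called. In EG, Ldb2 was the only cofactor called lower than in E11.5 PGC (adjusted p = 0.0236, and 0.0928 to 0.167 with 1 array left out). Lmo2 had 6.41 and 9.81 in EG, and the blocked model called Ldb2, Lmo2 and Ssbp3 lower there (adjusted p = 0.00812, 0.00866 and 0.0463).

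None of the other Pax genes was called in any comparison with E11.5 PGC. Pax2, which works with Pax8 and Lhx1 in the kidney anlage, had 47.2 and 34.9 in E11.5 PGC, 53.0 and 29.1 on the Day3 arrays, 52.5 and 32.8 on the Day6 arrays, and 40.4 and 43.7 in EG. Its arrays overlapped in all groups. Day6 minus E11.5 PGC was 0.03 ± 0.39 for Pax2 (adjusted p = 0.976) and -0.02 ± 0.31 for Pax9 (adjusted p = 0.98). Pax9, which acts in pharyngeal pouches and teeth, was bright in every group, between 1294 and 2256. Among Pax partners such as Six4, Eya1 and Dach1, which act with Pax genes in eye and kidney, 1 of 10 tested genes was lower at Day6 than in E11.5 PGC and none was higher. The 1 gene was Six4, which had 4.97 and 6.28 at Day6 and 13.9 and 17.1 in E11.5 PGC, a change of -1.47 ± 0.29 (adjusted p = 0.0248, and 0.0416 to 0.138 with 1 array left out, lost without either E11.5 PGC array or Day6 replicate 1). In EG, Six4 was called lower as well (-1.13 ± 0.29, adjusted p = 0.0489, and 0.119 to 0.256 with 1 array left out).

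Among 14 tested TALE homeobox relatives of Mkx, 1 was lower at Day6 than in E11.5 PGC and none was higher (3 and 1 under the blocked model). Tgif2, a corepressor of TGF-beta signalling, had 46.5 and 76.8 at Day6 and 236 and 220.4 in E11.5 PGC, a change of -1.93 ± 0.34 (adjusted p = 0.0175, and 0.0205 to 0.103 with 1 array left out, lost without either E11.5 PGC array or Day6 replicate 1). In EG its change from E11.5 PGC was -2.28 ± 0.34 (adjusted p = 0.01, and 0.0609 to 0.101 with 1 array left out). Pbx2 changed by -2.44 ± 0.85 and missed the threshold (adjusted p = 0.132), which it passed under the blocked model (0.00456). Of the 5 tested partners and relatives of Zfp521, Ebf1 and Zfp423 among them, none was called. Ebf1 had 25.02 and 32.6 at Day6 and 23.1 and 34.5 in E11.5 PGC.

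Runx1t1's relatives and partners gave no call at Day6 (0 of 11 tested; with the block, 4 were lower and 1 higher). In EG, 3 of 11 were lower than in E11.5 PGC. Hdac2, a histone deacetylase of corepressor complexes, had 459 and 442 in EG and 1547 and 1569 in E11.5 PGC, a change of -1.79 ± 0.30 (adjusted p = 0.0145, and 0.0744 to 0.125 with 1 array left out). Tcf12, an E protein that Runx1t1 binds, had 17.7 and 19.8 in EG and 64.6 and 82.99 in E11.5 PGC, a change of -1.97 ± 0.28 (adjusted p = 0.00819, and 0.0389 to 0.082 with 1 array left out, kept only without E11.5 PGC replicate 1). Sin3a, a corepressor scaffold, changed by -0.97 ± 0.25 (adjusted p = 0.0493, and 0.164 to 0.273 with 1 array left out). Cbfa2t2, the relative that works with Prdm14 in germ cells, had 62.3 and 60.8 in E11.5 PGC, 34.0 and 34.7 at Day6, and 44.6 and 54.3 in EG, and was not called. Runx1 itself was near the floor or without a value in E11.5 PGC, Day3 and Day6.

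**Figure D3:**
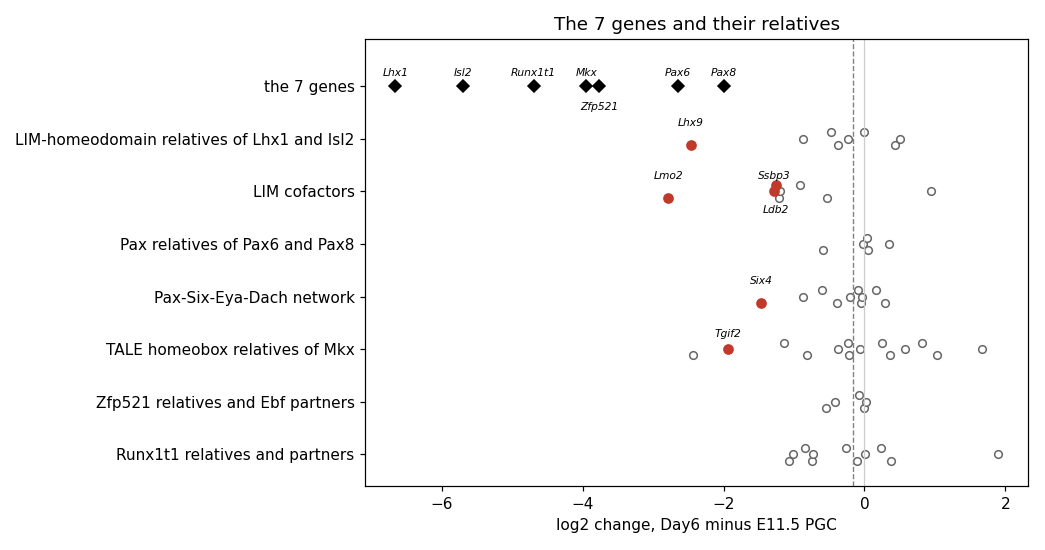
Log2 change from E11.5 PGC to Day6 for the 7 genes (black diamonds, described without a test) and for each tested gene of the lists of relatives and partners, with filled circles for genes lower at an adjusted p under 0.05 and open circles for the rest. The dashed line is the median of all probes, -0.16. The 7 genes lie at -1.998 or below, and Pbx2 is the open circle farthest to the left at -2.44.

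The list of homeobox and paired genes, drawn by symbol, held 161 genes with a probe other than the 7. It is not complete: it lacks the homeobox gene Nanog, which is read below with the pluripotency markers. Of the 161, 143 could be tested at Day6. Of these, 7 (4.9%) were lower than in E11.5 PGC and 7 (4.9%) higher, close to the shares over all probes. The median change was -0.08. Under the blocked model, 14 were lower and 12 higher. In EG, 6 of 151 were lower and 6 higher. At Day3 none of 149 passed (limma; with the block, 5 were lower and 2 higher). The largest changes called at Day6 were those of Rhox6, Vax2, Zfhx3 and Msx2, and in EG those of Obox1, Vax2, Msx2 and Zfhx3. Rhox6, of the X-linked reproductive homeobox cluster, had 21.8 and 196 at Day6 and 1338 and 3066 in E11.5 PGC, a change of -4.96 ± 1.102 (adjusted p = 0.0375, and 0.0153 to 0.182 with 1 array left out, kept only without Day6 replicate 2). The Day6 call of Msx2 (adjusted p = 0.0425) was lost with any 1 array left out (0.102 to 0.184). Among those lower in EG was Msx2, a homeobox gene that BMP signalling induces in many tissues, with 5.85 and 6.41 in EG and 227 and 197 in E11.5 PGC, a change of -5.11 ± 0.60 (adjusted p = 0.00467, and 0.0375 to 0.0539 with 1 array left out, lost without EG replicate 2).

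Genes of the tissues in which the 7 are best known gave few calls. Of 14 tested genes of intermediate mesoderm and nephric duct, none was called at Day6 against E11.5 PGC, and Sall1 was the only one of 15 called in EG, where it was higher (2.04 ± 0.50, adjusted p = 0.0448, and 0.149 to 0.246 with 1 array left out). None of 10 motor neuron genes was called at Day6 or in EG against E11.5 PGC. Of 11 neural progenitor and eye genes, Tubb3, a neuronal tubulin, was higher at Day6 with 117 and 127, against 23.2 and 31.2 in E11.5 PGC (2.18 ± 0.29, adjusted p = 0.00688, and 0.0252 to 0.053 with 1 array left out, lost without E11.5 PGC replicate 1). The intermediate filament gene Nes was lower in EG with 9.90 and 12.9, against 46.0 and 36.7 in E11.5 PGC (-1.86 ± 0.28, adjusted p = 0.00986, and 0.0543 to 0.0958 with 1 array left out). Of 14 tendon genes the collagen-binding proteoglycan Dcn was higher at Day3 than in E11.5 PGC (4.22 ± 0.76, adjusted p = 0.0436, and 0.099 to 0.244 with 1 array left out), none was called at Day6 against E11.5 PGC, and the early response gene Egr2 was lower in EG (-1.68 ± 0.40, adjusted p = 0.0392, and 0.0788 to 0.213 with 1 array left out). Under the blocked model, 2 nephric genes were higher and 1 lower at Day6 than in E11.5 PGC, as were 1 and 2 neural genes and 0 and 3 tendon genes. The EG calls of that model were 1 nephric, 1 motor neuron and 1 neural gene higher, and 1 neural and 2 tendon genes lower. With 2 arrays per group, a gene without a call is not shown to be unchanged.

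Markers of germ cells and of other cell types that a genital ridge sample can hold were summed per array and read gene by gene beside these declines. A sum is weighted by its brightest probes, so single genes can run against it, and the part of any of these markers in the decline of the 7 genes was not tested. All 10 germ cell markers were above the floor in every group. Their sum was 18214 and 10906 in E11.5 PGC, 8766 and 7305 on the Day3 arrays, 1641 and 4141 on the Day6 arrays, and 2511 and 2067 in EG. It was lower in every later array than in E11.5 PGC. Against E11.5 PGC, 1 germ cell gene was lower at Day3 (Dnd1), 3 at Day6 (Dnd1, Dppa3 and Ddx4) and 5 in EG, the largest changes being those of Dazl, Dnd1, Dppa3 and Kit. Dnd1, an RNA-binding protein of germ cells, changed by -5.65 ± 0.40 at Day6 (adjusted p = 0.00137, and 0.00651 to 0.0194 with 1 array left out), and its Day3 call (adjusted p = 0.0453) was lost with any 1 array left out (0.0625 to 0.252). The call of Ddx4 at Day6 and those of Dazl, Dppa3, Kit and Ddx4 in EG were also lost with any 1 array left out, with adjusted p up to 0.172. Of the 10 pluripotency markers, 3 were higher at Day3 (Fgf4, Tbx3 and Klf4), 6 at Day6 and 5 in EG, with Tdgf1 joining these among the largest, and Utf1 was lower at Day6. The Day3 calls of Tbx3 and Klf4 and the EG call of Zfp42 were lost with any 1 array left out. Those of Fgf4 at Day3, Nanog and Zfp42 at Day6 and Tbx3 in EG were lost in most such fits, as was that of the germ cell gene Dppa3 at Day6. At Day6, those of Utf1 and Tdgf1 were lost in some of these fits. The Day6 calls of Fgf4, Tbx3 and Klf4 held in all of them.

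The 18 gonadal somatic markers summed to 180 and 201 in E11.5 PGC, 202 and 165 on the Day3 arrays, 174 and 164 on the Day6 arrays, and 173 and 201 in EG. The Day3 and EG sums overlapped those of E11.5 PGC, and both Day6 sums lay below them. The list's median change from E11.5 PGC to Day6 was -0.17, close to the -0.16 of all probes, and 11 of 16 tested genes had a negative change. Single bright genes moved the Day6 sums both ways. Cbx2 had 44.81 and 50.03 in E11.5 PGC and 28.54 and 33.01 at Day6. Gata6 had 21.22 and 19.82 in E11.5 PGC and 43.60 and 28.76 at Day6. Of the 18 genes, 4, 6, 8 and 7 were near the floor or without a value in E11.5 PGC, Day3, Day6 and EG. Nr5a1, Star and Hsd3b1 of the list were near the floor or without a value in all groups, and Inhba was so in E11.5 PGC. Lhx9, described above, is a member of this list too and was the 1 of 16 tested that was called at Day6, where it was lower. Rspo1, a Wnt agonist of the early ovary, was not called and had 15.9 and 6.90 in E11.5 PGC, 2.61 and 3.62 on the Day6 arrays, and 17.9 and 15.1 in EG. The 17 nephric genes summed to 225 and 236 in E11.5 PGC, 301 and 238 on the Day3 arrays, 332 and 270.4 on the Day6 arrays, and 268 and 256 in EG. Gdnf made up 78.8 to 121 of each sum, and Ret, Sim1 and Foxc1 were near the floor or without a value in every group.

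The 10 endothelial markers summed to 554 and 694 in E11.5 PGC, 504 and 446 on the Day3 arrays, 357 and 372 on the Day6 arrays, and 631 and 605 in EG. Cdh5 was near the floor or without a value in every group. The EG sums rest mostly on Egfl7, which had 518 and 474 there and was higher than in E11.5 PGC, with 189 and 177 (adjusted p = 0.0405, and 0.134 to 0.215 with 1 array left out). Cldn5, a tight junction protein of vessels, had 105 and 80.7 in E11.5 PGC, 9.99 and 14.1 on the Day3 arrays, 4.11 and 6.87 on the Day6 arrays, and 13.9 and 11.96 in EG. All 6 later arrays were below both E11.5 PGC arrays. Cldn5 was called lower than in E11.5 PGC at Day3 (-2.96 ± 0.36, adjusted p = 0.0139), at Day6 (-4.12 ± 0.36, adjusted p = 0.00206) and in EG (-2.84 ± 0.36, adjusted p = 0.00586). With 1 array left out, its adjusted p was 0.055 to 0.107 at Day3, 0.00616 to 0.0233 at Day6 and 0.0404 to 0.0682 in EG, where the call was lost without either EG array. Pecam1, an adhesion molecule of endothelium that germ cells and pluripotent cells also carry, had 44.1 and 60.7 in EG and 184 and 377 in E11.5 PGC (-2.35 ± 0.54, adjusted p = 0.0348, and 0.0675 to 0.203 with 1 array left out). Tek was higher at Day6 than in E11.5 PGC, where it was near the floor (adjusted p = 0.0315, and 0.0195 to 0.151 with 1 array left out, kept only without Day6 replicate 1).

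The 7 blood markers summed to 173 and 197 in E11.5 PGC, 198 and 170.0 on the Day3 arrays, 395 and 276 on the Day6 arrays, and 557 and 628 in EG. Laptm5 and Cd68 carried the higher sums, with 200.2 and 261 for Laptm5 and 283 and 307 for Cd68 in EG, against 8.98 and 10.4 for Laptm5 and 64.2 and 73.6 for Cd68 in E11.5 PGC. Tyrobp, an adaptor of myeloid cells in the same list, had 43.3 and 34.6 in E11.5 PGC and 10.4 to 12.3 on the 6 later arrays. It was called lower than in E11.5 PGC at Day3 (-1.71 ± 0.26, adjusted p = 0.0262, and 0.102 to 0.166 with 1 array left out). The call also stood at Day6 (-1.76 ± 0.26, adjusted p = 0.00916, and 0.0277 to 0.0686 with 1 array left out, lost without E11.5 PGC replicate 1). In EG it was -1.84 ± 0.26 (adjusted p = 0.00793, and 0.0466 to 0.0925 with 1 array left out, kept only without E11.5 PGC replicate 2). The 13 mesenchyme markers summed to 476 and 595 in E11.5 PGC, and to 1221 and 756 on the Day3 arrays. At Day6 they stood apart in replicate 1, with 4322 against 833 in replicate 2, and in EG they were 1810 and 890. Within series B the sum was also higher at Day6 (833) than in E11.5 PGC (595), and Vim carried it, with 588 against 344. Of the dimmer genes in series B, Col1a2 and Col3a1 were lower at Day6, and Thy1 and S100a4 higher. The changes of the 7 genes for Day6 minus E11.5 PGC in that series ran from -6.01 for Lhx1 to -2.21 for Pax8. Whether the mesenchyme markers bear on these changes was not tested.

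**Figure D4:**
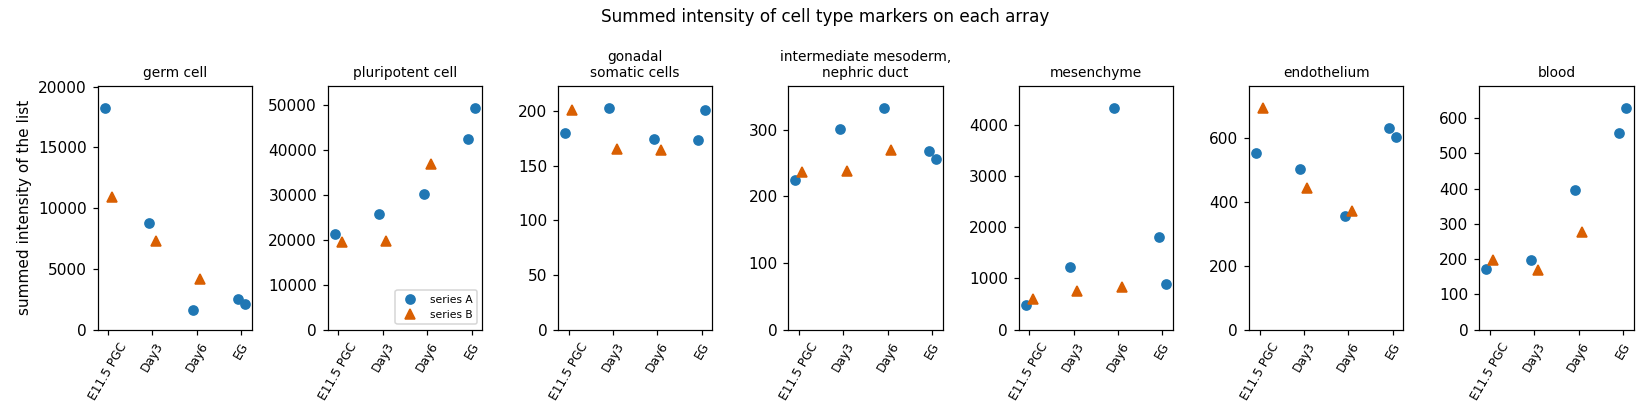
Summed intensity of 7 lists of cell type markers on each array, each panel on its own linear axis from 0, with circles for series A and triangles for series B. The germ cell sums were highest in E11.5 PGC and the pluripotency sums in EG. The latter rest mostly on Dppa5a, and 6 of the 10 pluripotency genes had a lower mean in EG than at Day6. The gonadal somatic sums at Day6 (174 and 164) lay below those of E11.5 PGC (180 and 201). That list's median change, -0.17, was close to the -0.16 of all probes.

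Genes with the most similar course over the 8 arrays were found by the root mean square difference of mean-centred log2 intensity, among 14205 probes. For Mkx the nearest was Ptpre, a receptor tyrosine phosphatase gene, at a difference of 0.34. Ptpre had 70.1 and 84.6 in E11.5 PGC and between 3.54 and 4.95 on the 6 later arrays. For Runx1t1 it was the crystallin gene Crygs at 0.41, and among the 7 genes Mkx and Runx1t1 were each other's nearest, at 0.53. For Lhx1 the nearest was Runx1t1 at 0.99, ahead of Hey1, a Notch target, at 1.12. Hey1 had 596 and 540 in E11.5 PGC, 62.4 and 33.9 on the Day3 arrays, 17.6 and 12.2 on the Day6 arrays, and 23.9 and 19.6 in EG.

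For Pax8 the nearest were the blood marker Tyrobp at 0.21 and Mapk8ip2, a JNK scaffold, at 0.23. Mapk8ip2 had 18.05 and 17.7 in E11.5 PGC and 2.81 to 5.31 on the 6 later arrays. For Zfp521 the nearest was the flippase gene Atp10a at 0.47, which had 80.8 and 79.1 in E11.5 PGC, 36.4 and 35.4 on the Day3 arrays, and 3.92 to 6.99 on the Day6 and EG arrays. For Pax6 they were the phosphatase gene Ptpn22 at 0.83 and Gata2, a transcription factor of blood stem cells, at 0.86. Gata2 had 162 and 91.2 in E11.5 PGC, 232 and 57.6 on the Day3 arrays, 24.1 and 22.7 on the Day6 arrays, and 13.7 and 14.8 in EG. Its Day3 arrays lay on both sides of its E11.5 PGC arrays, whereas both Day3 arrays of Pax6 lay above its own. These likenesses describe the 8 arrays, which share groups and series.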

How the data were processed

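The deposited values are linear intensity of Cy5-labelled RNA on TORAY oligonucleotide arrays, per the labels, and were scaled by the authors to a common array median. How background was corrected, how arrays were scaled and why cells are missing is not given in the sources used here. Of 23473 probes, 19524 had values on every array, and 11674 cells were missing. Each array had 21126 to 22404 probes with a value, and 2 arrays per group limit the precision. Intensities were converted to log2 with no further normalization, and missing values stayed missing. Of the probes, 16631 had 1 symbol (12622 current, 3947 updated through synonyms, 62 kept as given) and 6842 had none. A gene with several probes was read from its brightest one.

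A fit of group means to each probe over all 8 arrays and 4 groups (limma 3.58.1, R 4.3.3) gave changes, standard errors and two-sided moderated p-values, adjusted by Benjamini-Hochberg over the probes with a value on both arrays of both groups, with a threshold of 0.05. The fit was also run on simulated arrays with independent noise, no series effect and no missing values. Such a run cannot show how well the calls hold on these arrays. The array series was an alternative block. As a check of pairing by number, the deviation of replicate 1 from the mean of its group was compared across 19524 probes: its correlation was 0.62 for Day3 with E11.5 PGC, 0.547 for Day6 with E11.5 PGC and 0.694 for Day6 with Day3, and -0.025 to 0.061 for EG, both of whose arrays are of series A. Other alternatives were the pseudocount, quantile normalization, leaving out the dimmest 25% of probes, missing cells set to an array's lowest value, a trended and robust variance, and leaving out each array.

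The 7 genes and all 18 lists were chosen with earlier results of these data known. Named from each list were the genes called in a comparison, or the 4 with the largest change where more were called, and some of its bright members, and for likeness the 2 nearest genes per member. Ldb1, Isl1, Runx1, Cbfa2t2, Pbx2, Rspo1, Gdnf, Utf1 and Hoxb9 were named after their values were seen. The list of homeobox and paired genes was drawn by symbol, and names that are no homeobox gene were taken out after a first run. Promoter sequences are from RefSeq (GRCm38.p6). They are shown for 4 of the 7 genes, since windows on chromosome 18 were left out of the genes' set and Runx1t1 had no entry.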

Additional observations from a re-analysis of the deposited data

How the results depend on the processing

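The direction of every change of the 7 genes that exceeded its standard error was kept under all alternatives run. Of the alternative values for single genes, 313 stayed within the spread between arrays and 17 moved beyond it, all with the pseudocount, which shrinks changes that end near the floor. Most of the 313 had to stay, because leaving out 1 of 2 arrays cannot move a change beyond this spread. The trended variance, the dim-probe filter and the missing-cell setting do not alter these changes at all. The number 313 is therefore no measure of stability. The changes of Lhx1 and Pax8 for Day6 minus Day3, and of Lhx1, Pax6 and Pax8 for EG minus Day6, were close to 0 and changed sign within the spread. The median change of the genes was -1.20 to -0.46 for Day6 minus Day3 with 1 array left out, and -3.80 for EG minus E11.5 PGC with the pseudocount. With the array series as a replicate block, calls over all probes numbered 1725 for Day3 minus E11.5 PGC (431 without it), 361 for Day6 minus Day3 (0), 4790 for Day6 minus E11.5 PGC (1734), 4905 for EG minus E11.5 PGC (2321) and 395 for EG minus Day6 (34), and the homeobox genes called lower numbered 5, 1, 14, 12 and 2. The pseudocount gave 672 calls for Day3 minus E11.5 PGC, 62 for Day6 minus Day3 and 151 for EG minus Day6, and 2 homeobox genes lower at Day3. Without the dimmest 25% of probes there were 89 calls for EG minus Day6 and 1 homeobox gene lower at Day3, and the trended, robust variance gave 34 for Day6 minus Day3 and 98 for EG minus Day6. Leaving out 1 array gave 4 to 90 calls for Day3 minus E11.5 PGC, 0 for Day6 minus Day3 and for EG minus Day6, 430 to 1652 for Day6 minus E11.5 PGC and 232 to 652 for EG minus E11.5 PGC. Homeobox genes called lower were then 0 to 1, 0 to 6 and 0 to 1 in the 3 comparisons with E11.5 PGC. Fewer arrays leave fewer residual degrees of freedom, and the cause of the other shifts was not tested. Blocked values for EG assume one shared offset between the array series.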

Other observations

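Some homeobox genes took the opposite course to the 7 described. Vax2, a homeobox gene of the ventral eye, had 1.68 and 1.92 in E11.5 PGC, 2.27 and 5.12 on the Day3 arrays, 19.9 and 15.4 on the Day6 arrays, and 70.1 and 113.8 in EG. It was near the floor in E11.5 PGC, and its change was 3.29 ± 0.45 for Day6 minus E11.5 PGC (limma, adjusted p = 0.00715, and 0.0208 to 0.0554 with 1 array left out, lost without either E11.5 PGC array) and 5.64 ± 0.45 for EG minus E11.5 PGC (adjusted p = 0.00165, and 0.0162 to 0.0287 with 1 array left out). Zfhx3, a large zinc finger homeobox protein, had 9.94 and 11.1 in E11.5 PGC, 81.8 and 92.6 at Day6, and 80.9 and 68.6 in EG. Its change was 3.05 ± 0.32 at Day6 (adjusted p = 0.0033) and 2.83 ± 0.32 in EG (adjusted p = 0.0041), and it was called with any 1 array left out. Hoxb9 was higher as well, by 1.46 ± 0.26 at Day6 (adjusted p = 0.0167, and 0.0468 to 0.0967 with 1 array left out, kept only without Day6 replicate 2). Obox1, an oocyte homeobox gene, was near the floor in E11.5 PGC with 1.51 and 1.84, and had 104 and 474 in EG (adjusted p = 0.00492, and 0.0162 to 0.0423 with 1 array left out).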
